A study of Homo sapiens with 12 samples.

Results

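Chemokines and homing receptors steer where plasma cells and myeloma cells settle. The 9 genes described here are the chemokines CXCL10 and CCL3, the chemokine receptors CXCR4, CXCR3, CCR1, CCR2 and CCR10, and the sphingosine-1-phosphate (S1P) receptors S1PR1 and S1PR2. They were chosen by name, with earlier results of these data known, and each had 1 row among the 60504 genes of the deposited expression table. Counts of these genes beside shares of all genes are therefore descriptions only. Chemokines are small secreted proteins that bind G protein-coupled receptors on the moving cell and draw it up their gradient. CXCR4, the receptor of CXCL12, holds plasma cells in the bone marrow, CCR10 guides antibody-secreting cells to mucosal surfaces, and S1P receptors control exit from and confinement within lymphoid tissue.

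All libraries came from TKO cells, a derivative of the human multiple myeloma line KMS-11 labelled as plasma cells with the genotype WHSC1(+/-). WHSC1 is an older symbol of NSD2, a histone H3 methyltransferase that a chromosomal translocation activates in KMS-11. In 3 of the 4 groups the cells carried an expression vector: for NSD2 p.D1240A (D1240A), for NSD2 p.F1295A (F1295A) or for unsubstituted NSD2 (WT). The fourth group, TKO, had no vector. Each group had 3 libraries of polyadenylated RNA, labelled as biological replicates. The sources used here do not say how the replicates were separated or whether a line was 1 clone or a pool, so p-values measure the spread between these libraries. Cells with an empty vector were not analysed here, so the effect of carrying a vector and that of NSD2 cannot be told apart in comparisons with TKO. The D1240A, F1295A and WT comparisons with TKO share the same TKO libraries.

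Levels are FPKM, fragments scaled by transcript length and library total, after rescaling between libraries, and errors are SD with n = 3. Changes are differences of log2(FPKM + 0.5), which understates the change of low genes. A gene was called changed at an adjusted p under 0.05 in limma over 14391 tested genes. Estimated from the steps between low values, depth was 32500000 to 62000000 fragments per library. D1240A replicate 2 stood apart, with 52.7% of its FPKM sum in ribosomal RNA, against 1.66% to 2.47% in the other 11, and a log2 scaling factor of -0.30, against -0.00 to 0.06. On the values as deposited, the median change over all tested genes was -0.12 in D1240A against TKO and -0.10 in D1240A against WT, and the changes below are relative to a median of 0.01 in each after rescaling. NSD2 itself averaged 251 ± 8.51 FPKM in D1240A, 164 ± 6.57 in F1295A, 191 ± 3.87 in WT and 60.1 ± 2.25 in TKO. Of the plasma cell markers JCHAIN, XBP1, IRF4, PRDM1, TNFRSF17 and MZB1 were high in every group. CD38 averaged under 1 FPKM in each group, and SDC1, which encodes CD138, averaged 0.278 ± 0.130 FPKM in D1240A, 0.250 ± 0.101 in F1295A, 0.235 ± 0.0742 in WT and 4.01 ± 0.242 in TKO. The summed level of the 8 plasma cell markers was 3820 to 4145 FPKM in D1240A, 4635 to 5043 in F1295A, 4679 to 4913 in WT and 2336 to 2549 in TKO, so it moved with the groups, and its part in the results below was not tested.

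The promoters of 3 genes are shown because they belong to the chemokine that rose and to 2 receptors with lower levels in the vector lines, and because CXCL10 and CXCR3 encode a ligand and its own receptor. Sequences are from RefSeq (GRCh38.p14), on the minus strand, 5′ to 3′, 250 bases before to 50 after the transcription start. The windows are chr4:76023448-76023747 for CXCL10, chr2:136118100-136118399 for CXCR4, the first of its 3 listed starts, and chrX:71618462-71618761 for CXCR3. Capitals mark matches on either strand to 7 motifs searched.
CXCL10: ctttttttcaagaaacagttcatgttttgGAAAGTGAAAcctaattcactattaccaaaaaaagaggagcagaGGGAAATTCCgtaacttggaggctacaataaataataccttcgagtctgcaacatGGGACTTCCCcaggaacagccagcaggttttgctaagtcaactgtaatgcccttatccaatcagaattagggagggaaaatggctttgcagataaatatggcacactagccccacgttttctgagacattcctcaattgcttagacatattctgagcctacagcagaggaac
CXCR4: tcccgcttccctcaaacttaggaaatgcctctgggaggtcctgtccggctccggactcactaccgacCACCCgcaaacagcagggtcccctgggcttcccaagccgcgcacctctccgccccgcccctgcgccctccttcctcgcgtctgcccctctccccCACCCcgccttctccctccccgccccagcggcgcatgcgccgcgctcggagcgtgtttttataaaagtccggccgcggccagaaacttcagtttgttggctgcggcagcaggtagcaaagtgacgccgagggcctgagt
CXCR3: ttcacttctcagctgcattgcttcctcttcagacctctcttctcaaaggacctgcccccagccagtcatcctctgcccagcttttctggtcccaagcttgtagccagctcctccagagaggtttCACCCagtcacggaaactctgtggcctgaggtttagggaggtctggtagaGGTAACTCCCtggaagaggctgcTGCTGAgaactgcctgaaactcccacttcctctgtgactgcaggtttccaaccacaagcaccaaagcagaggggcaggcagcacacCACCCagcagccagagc
The CXCL10 window held an interferon response element, searched as GAAA on each side of any pair of bases, at bases -221 to -212 from the start. It also held kappa B type matches, searched as GGGA, any 4 bases and CC, at -177 to -168 and at -122 to -113, the second of them on both strands. The interferon pattern was present in 3.57% of the 35116 full-length RefSeq promoters and the kappa B pattern in 25.6%. In the CXCR3 window a kappa B type match lay on the other strand at -76 to -67 and TGCTGA, a MAF half-site, at -53 to -48, and TGCTGA was present in 17.3% of promoters. The KLF type motif CACCC, found in 59.9% of promoters, accounted for both matches in the CXCR4 window shown and for 2 in that of CXCR3. Over its 3 windows CXCR4 had 8 matches, among them a kappa B type match at -54 to -45 in a window not shown. The other letters searched were TGANTCA for AP-1, in 7.71% of promoters, CACGTG for the E-box, in 7.26%, and TGACGTCA for the cyclic AMP response element, in 1.85%. The CXCL10 window was 41.3% G or C and that of CXCR4 66.7%, beside a median of 58.7% over all promoters. A match describes the letters only. Of the 9 genes, 8 were found in the promoter table, and the CCR1 window held 0 of the 7 motifs.

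Of the 9 genes, 6 passed the filter of 0.5 FPKM in at least 3 libraries: CXCL10, CXCR4, CXCR3, CCR1, CCR10 and S1PR2. CXCR3 passed through its TKO libraries, so a difference from TKO was a condition of its being tested, and the counts against TKO are given for the other 5. CCL3, CCR2 and S1PR1 were not tested. In D1240A against TKO 2 of these 5 rose, 2 fell and 1 was not called, while 23.3% of all tested genes were called higher and 21.2% lower (44.5% in all). F1295A against TKO also had 2 higher, 2 lower and 1 not called, beside 23.9% and 21.8% of all genes (45.7%). In WT against TKO 2 rose and 3 fell, beside 25.9% and 23.9% (49.7%). Changes against TKO were thus common among all genes. The libraries of the 2 groups did not overlap for 4 of the 5 in D1240A, 4 in F1295A and 5 in WT against TKO, where 52.5%, 55.7% and 60.4% of all tested genes did not overlap. The median log2 change of the 5 was 0.03 in D1240A, -0.02 in F1295A and -0.14 in WT, each against TKO, while that of all tested genes lay at 0.01, -0.00 and -0.01.

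**Figure D1:**
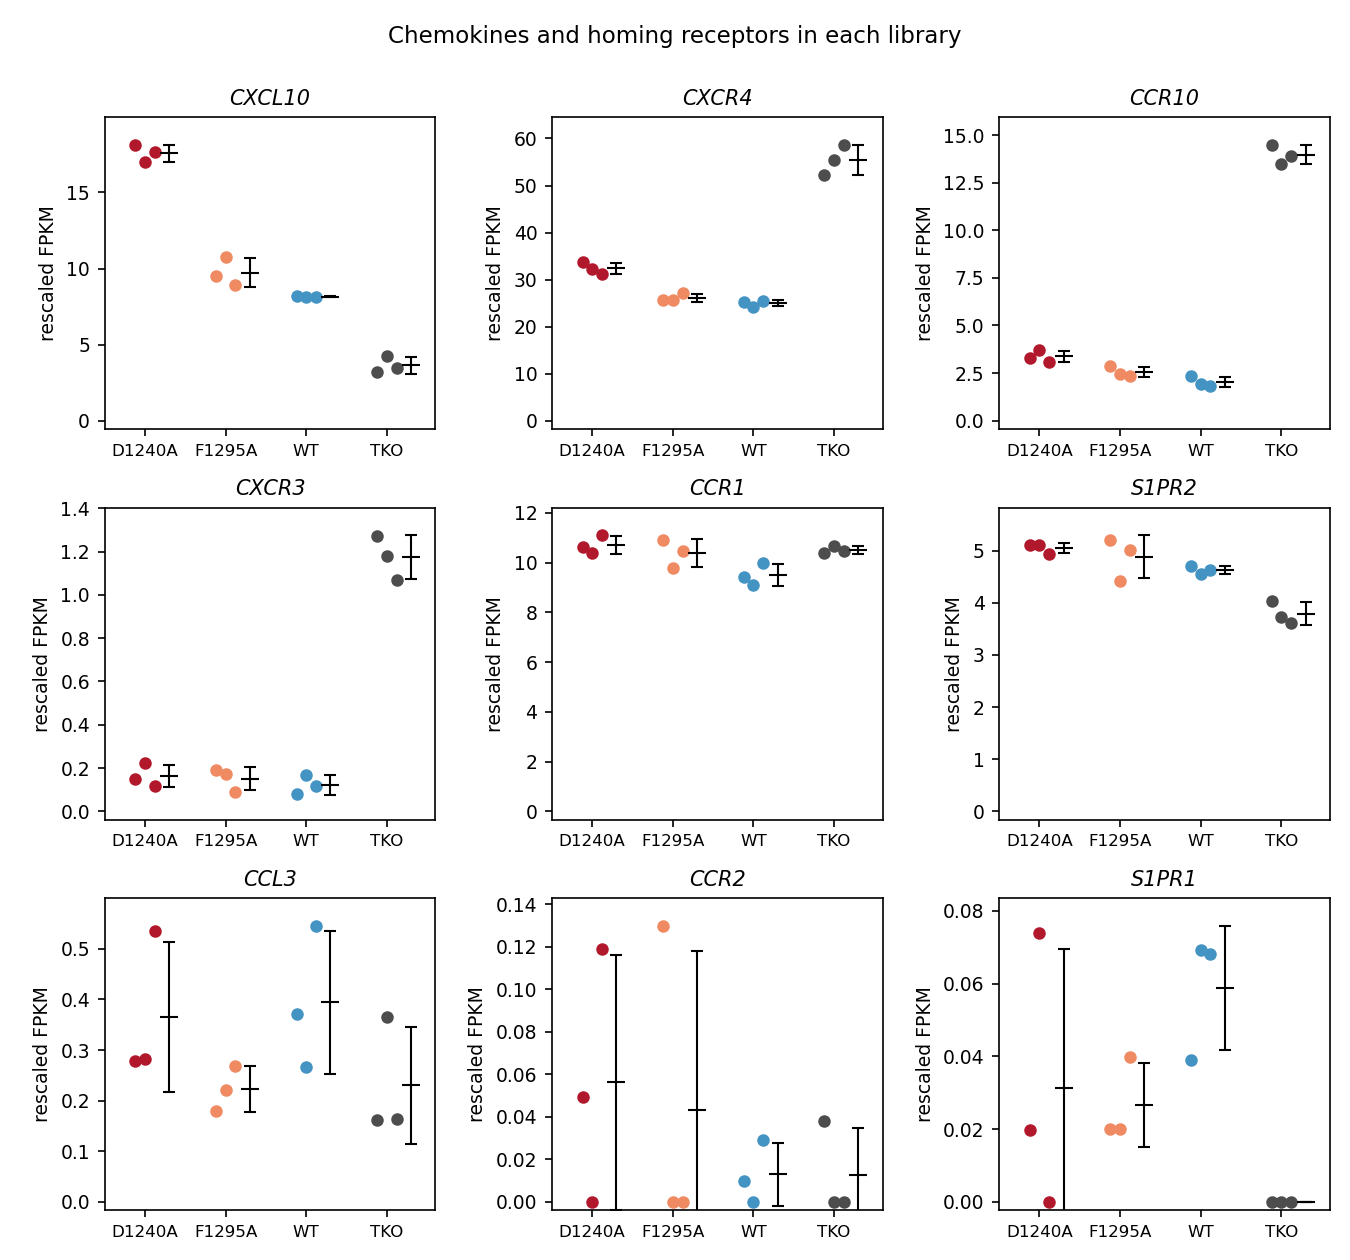
Level of each of the 9 genes in rescaled FPKM (vertical axes, linear and different for each gene) in the 3 libraries of each group; points are libraries, and the bar beside them is the mean ± SD. CXCL10 is highest in D1240A and lowest in TKO, CXCR4, CCR10 and CXCR3 are highest in TKO, and CCL3, CCR2 and S1PR1 stay under 0.6 FPKM in every library.

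CXCL10 is the interferon-inducible chemokine that attracts activated T cells and other cells bearing CXCR3. Its gene (ENSG00000169245, chr4:76021117-76023497, minus strand) measured 18.1, 17.0 and 17.6 FPKM in D1240A, 9.51, 10.8 and 8.94 in F1295A, 8.21, 8.12 and 8.15 in WT, and 3.23, 4.28 and 3.44 in TKO. All 9 vector libraries lay above all 3 TKO libraries, and all 3 D1240A libraries above every other. Means were 17.6 ± 0.554 FPKM in D1240A and 3.65 ± 0.553 in TKO, a log2 change of 2.13 (SE 0.09, adjusted p = 5.8e-09). F1295A, at 9.73 ± 0.930 FPKM, rose by 1.31 on the log2 scale over TKO (adjusted p = 2.7e-07). WT, at 8.16 ± 0.0499 FPKM, rose by 1.07 (adjusted p = 1.2e-06).

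The same chemokine separated the mutants. CXCL10 rose by 1.06 on the log2 scale in D1240A against WT (95% interval 0.87 to 1.26, adjusted p = 1.5e-05), a ratio of means of 2.15, and by 0.82 in D1240A against F1295A (0.63 to 1.02, adjusted p = 0.00046). Only 0.973% of all tested genes differed at least as much in D1240A against F1295A. F1295A and WT did not overlap, but their difference of 0.24 (0.04 to 0.43) did not pass the test (adjusted p = 0.201). Without D1240A replicate 2, the CXCL10 difference was 1.09 against WT (adjusted p = 8.48e-05) and 0.85 against F1295A (adjusted p = 0.00188). The gene lies inside the span of ART3 on the opposite strand, and ART3 averaged 0.00665 FPKM in F1295A and was listed at 0 in the other groups.

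CXCL9 and CXCL11, the other ligands of CXCR3, lie beside CXCL10 and reached at most 0.0123 FPKM in any library. Chemokine ligands as a family were sparse: of 48 listed, 46 were in the table, 25 of them listed at 0 in all 12 libraries, and only CXCL10 and CCL5 were tested. CCL5, a ligand of CCR1, averaged 4.18 ± 0.480 FPKM in D1240A, 4.48 ± 0.414 in F1295A, 5.30 ± 0.352 in WT and 5.99 ± 0.306 in TKO. It fell against TKO in D1240A (log2 change -0.48, adjusted p = 0.0011) and in F1295A (-0.38, adjusted p = 0.0042), and in D1240A against WT (-0.31, adjusted p = 0.0315). In WT against TKO the CCL5 difference of -0.16 was not called (adjusted p = 0.158). CXCL12, the ligand of CXCR4, was listed at 0 in every library, and so was CCL28, a ligand of CCR10. CCL27, the other CCR10 ligand, had group means of 0.0165 FPKM in D1240A, 0.0199 in F1295A, 0.0197 in WT and 0 in TKO.

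CCL3, also called MIP-1 alpha, is a ligand of CCR1 that myeloma cells are known to secrete and that promotes osteoclast formation. Here its gene (ENSG00000277632, chr17:36088256-36090169, minus strand) was low, with 0.277, 0.283 and 0.536 FPKM in D1240A, 0.180, 0.221 and 0.269 in F1295A, 0.371, 0.267 and 0.545 in WT, and 0.163, 0.364 and 0.164 in TKO. These values correspond to about 9.4 to 37 fragments a library, and each group overlapped the others except D1240A and F1295A. Without the filter, no CCL3 difference passed limma in the 6 comparisons. The near-identical gene CCL3L1 may share its fragments.

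**Figure D2:**
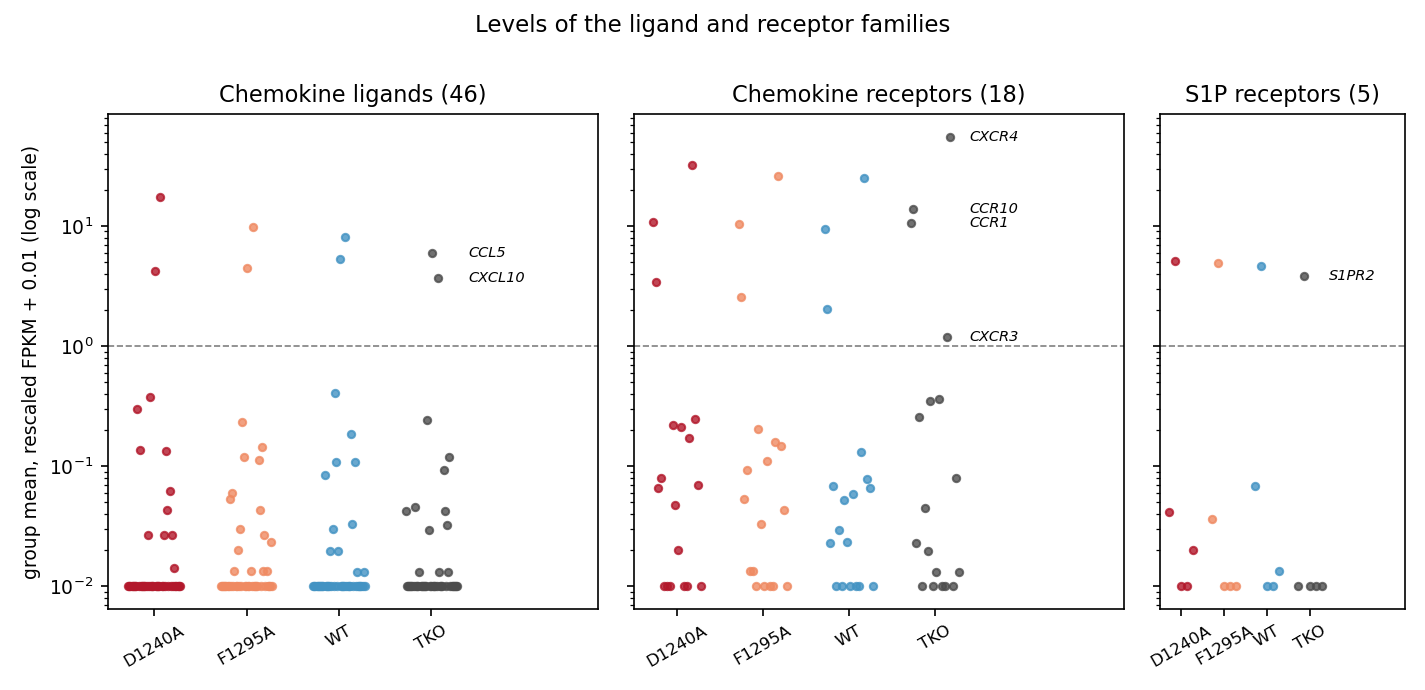
Group mean of every chemokine ligand, chemokine receptor and S1P receptor in the table (vertical axis, rescaled FPKM + 0.01, log scale), 1 point per gene and group, with the dashed line at 1 FPKM. In each family most genes lie near 0, and the named ones are those with a mean of at least 1 FPKM in a group.

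CXCR3 is the receptor of CXCL9, CXCL10 and CXCL11. Its gene (ENSG00000186810, chrX:71615916-71618517, minus strand) measured 0.149, 0.222 and 0.119 FPKM in D1240A, 0.190, 0.171 and 0.0897 in F1295A, 0.0781, 0.168 and 0.117 in WT, and 1.27, 1.18 and 1.07 in TKO. The vector libraries held about 6.8 to 16 fragments of it, the TKO libraries about 98 to 120. Means of CXCR3 were 0.163 ± 0.0527 FPKM in D1240A, 0.150 ± 0.0531 in F1295A, 0.121 ± 0.0450 in WT and 1.17 ± 0.102 in TKO. The log2 differences from TKO were -1.34, -1.37 and -1.43. The filtered test gives no support here, since CXCR3 entered it through TKO. In limma on all genes with no filter on low values, which does not depend on TKO, CXCR3 was lower in D1240A (adjusted p = 4.96e-06), F1295A (adjusted p = 3.71e-06) and WT (adjusted p = 2.22e-06) than in TKO. At these levels the size rests on the pseudocount: WT against TKO was -2.54 with 0.1 FPKM and -0.95 with 1 FPKM, and the mean in WT was 0.103 of that in TKO. Among the vector lines CXCR3 was not called, with differences of 0.03 to 0.09 and intervals within -0.27 to 0.40.

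CXCR4 was the most abundant of the 9 per length. It (ENSG00000121966, chr2:136114349-136118165, minus strand) measured 33.7, 32.2 and 31.2 FPKM in D1240A, 25.6, 25.7 and 27.1 in F1295A, 25.2, 24.3 and 25.4 in WT, and 52.3, 55.3 and 58.7 in TKO. No vector library reached the lowest TKO library, and the D1240A libraries lay above those of F1295A and WT. The level fell to 24.95 ± 0.607 FPKM in WT, against 55.4 ± 3.20 in TKO, a log2 change of -1.13 (SE 0.05, adjusted p = 3.3e-09). The change was -1.07 in F1295A (26.1 ± 0.831 FPKM, adjusted p = 6.7e-09) and -0.77 in D1240A (32.4 ± 1.24 FPKM, adjusted p = 1.3e-07), each against TKO.

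Between the vector lines, CXCR4 was higher in D1240A than in WT by 0.37 (0.27 to 0.47, adjusted p = 0.00029) and than in F1295A by 0.30 (0.20 to 0.40, adjusted p = 0.0046). Without D1240A replicate 2 these were 0.37 (adjusted p = 0.0012) and 0.31 (adjusted p = 0.0153). On the values as deposited both kept their direction and missed the threshold, at 0.25 (adjusted p = 0.0888) and 0.21 (adjusted p = 0.283). In F1295A against WT the difference of 0.07 (-0.04 to 0.17) was not called (adjusted p = 0.542).

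CCR10 had the largest log2(FPKM + 0.5) change of the 6 tested genes against TKO in WT and in F1295A, whereas by ratio of means CXCR3 was further from TKO, at 0.128 in F1295A and 0.103 in WT, against 0.183 and 0.146 for CCR10. It (ENSG00000184451, chr17:42678889-42683917, minus strand) measured 3.31, 3.70 and 3.11 FPKM in D1240A, 2.85, 2.47 and 2.34 in F1295A, 2.34, 1.94 and 1.84 in WT, and 14.5, 13.5 and 13.9 in TKO. The TKO libraries stood far above the other 9. CCR10 fell to 2.04 ± 0.268 FPKM in WT, against 14.0 ± 0.497 in TKO, a log2 change of -2.51 (SE 0.09, adjusted p = 1.6e-09), and 0.521% of all tested genes changed at least as much. The changes in F1295A (2.55 ± 0.267 FPKM) and D1240A (3.37 ± 0.304 FPKM) against TKO were -2.25 and -1.90 (adjusted p = 5.3e-09 and 2.4e-08).

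D1240A kept more CCR10 than WT, by 0.61 (0.40 to 0.82, adjusted p = 0.0011), and all 3 D1240A libraries lay above all WT and F1295A libraries. In D1240A against F1295A the difference of 0.34 (0.14 to 0.55) missed the threshold (adjusted p = 0.0554). It passed with a filter at 1 FPKM (adjusted p = 0.0498), without F1295A replicate 1 (0.0430) or without WT replicate 1 (0.0460). F1295A against WT gave 0.27 (0.06 to 0.47, adjusted p = 0.178). The span of CCR10 overlaps CNTNAP1 on the opposite strand, which fell too against TKO (adjusted p of 0.0018 in D1240A, 0.00011 in F1295A and 3.6e-05 in WT), averaging 2.08 FPKM in D1240A, 1.55 in F1295A, 1.32 in WT and 4.01 in TKO. The sources used here do not state a strand setting for the counting, so reads of the overlap may count for either gene, and the part of CNTNAP1 in the CCR10 values was not tested.

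CCR1, a receptor of CCL3 and CCL5 that drives migration of myeloma cells, hardly varied. It (ENSG00000163823, chr3:46201709-46208396, minus strand) measured 10.6, 10.4 and 11.1 FPKM in D1240A, 10.9, 9.79 and 10.5 in F1295A, 9.40, 9.10 and 9.99 in WT, and 10.4, 10.7 and 10.5 in TKO. WT was the lowest group, and its libraries lay below those of D1240A and TKO. CCR1 fell in WT against TKO by 0.14 on the log2 scale (adjusted p = 0.0443) and rose in D1240A against WT by 0.16 (adjusted p = 0.0479). The first call was lost without either of D1240A replicate 1 and F1295A replicate 3, without WT replicate 1 or 2, without any TKO library, without the filter and on the values as deposited, with adjusted p of 0.0542 to 0.192. The second was lost under 14 of the 22 alternatives, with adjusted p of 0.0539 to 0.787. D1240A and F1295A differed from TKO by 0.03 (-0.09 to 0.14) and -0.02 (-0.13 to 0.10), neither called.

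CCR1 is known as a target of the transcription factor MAF in myeloma, together with ITGB7 and CCND2. MAF averaged 106 ± 6.10 FPKM in D1240A, 116 ± 10.2 in F1295A, 121 ± 2.72 in WT and 113 ± 6.69 in TKO, and it was not called in WT against TKO or in either mutant against WT. ITGB7, the beta chain of the gut-homing integrin, averaged 595 ± 16.7 FPKM in D1240A, 744 ± 10.7 in F1295A, 837 ± 8.93 in WT and 473 ± 13.6 in TKO. It fell in D1240A against WT by 0.49 (adjusted p = 1.6e-06), opposite in sign to CXCL10, CXCR4 and CCR10 in that comparison.

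CCR2, the receptor of CCL2 on monocytes, was close to absent. It (ENSG00000121807, chr3:46353734-46360928, plus strand) was listed at 0 in 6 of the 12 libraries and reached 0.130 FPKM, about 15 fragments, in F1295A replicate 1. The values were 0.0495, 0 and 0.119 FPKM in D1240A, 0.130, 0 and 0 in F1295A, 0.00977, 0 and 0.0292 in WT, and 0.0383, 0 and 0 in TKO. No difference was detectable at this depth. Of 18 signalling chemokine receptors in the table, 4 were tested (CXCR4, CCR1, CCR10 and CXCR3), and all 5 atypical, scavenging receptors fell below the filter.

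S1PR2 couples to GNA13 and confines germinal centre B cells, and it was the S1P receptor with a clear signal. It (ENSG00000267534, chr19:10221433-10231331, minus strand) measured 5.10, 5.11 and 4.94 FPKM in D1240A, 5.21, 4.42 and 5.02 in F1295A, 4.71, 4.56 and 4.62 in WT, and 4.04, 3.72 and 3.62 in TKO. Every vector library lay above every TKO library, by small steps. S1PR2 rose in D1240A (5.05 ± 0.0939 FPKM) against TKO (3.79 ± 0.217 FPKM) by 0.37 (SE 0.07, adjusted p = 0.0009). F1295A (4.88 ± 0.409 FPKM) and WT (4.63 ± 0.0732 FPKM) rose against TKO by 0.33 (adjusted p = 0.0021) and 0.26 (adjusted p = 0.0077). On the values as deposited the D1240A and WT changes were 0.24 (adjusted p = 0.0657) and 0.23 (adjusted p = 0.0707), past the threshold no longer. The 3 vector lines were not called different from one another, with differences of 0.05 to 0.11. DNMT1 overlaps S1PR2 on the same strand, and its differences from TKO were -0.05 in D1240A (adjusted p = 0.22), -0.13 in F1295A (adjusted p = 0.0041) and -0.17 in WT (adjusted p = 0.00044). Its part in the S1PR2 values was not tested.

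S1PR1, the receptor by which lymphocytes and plasma cells leave lymphoid organs, was at the edge of detection. It (ENSG00000170989, chr1:101236865-101243713, plus strand) measured 0.0198, 0.0738 and 0 FPKM in D1240A, 0.0200, 0.0201 and 0.0399 in F1295A, 0.0391, 0.0691 and 0.0681 in WT, and was listed at 0 in all 3 TKO libraries. That is up to about 10 fragments a library. Without the filter on low values, limma gave WT against TKO a log2 difference of 0.16 (adjusted p = 0.0298) for S1PR1, which rests on these few fragments. S1PR3 and S1PR4 were listed at 0 throughout.

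**Figure D3:**
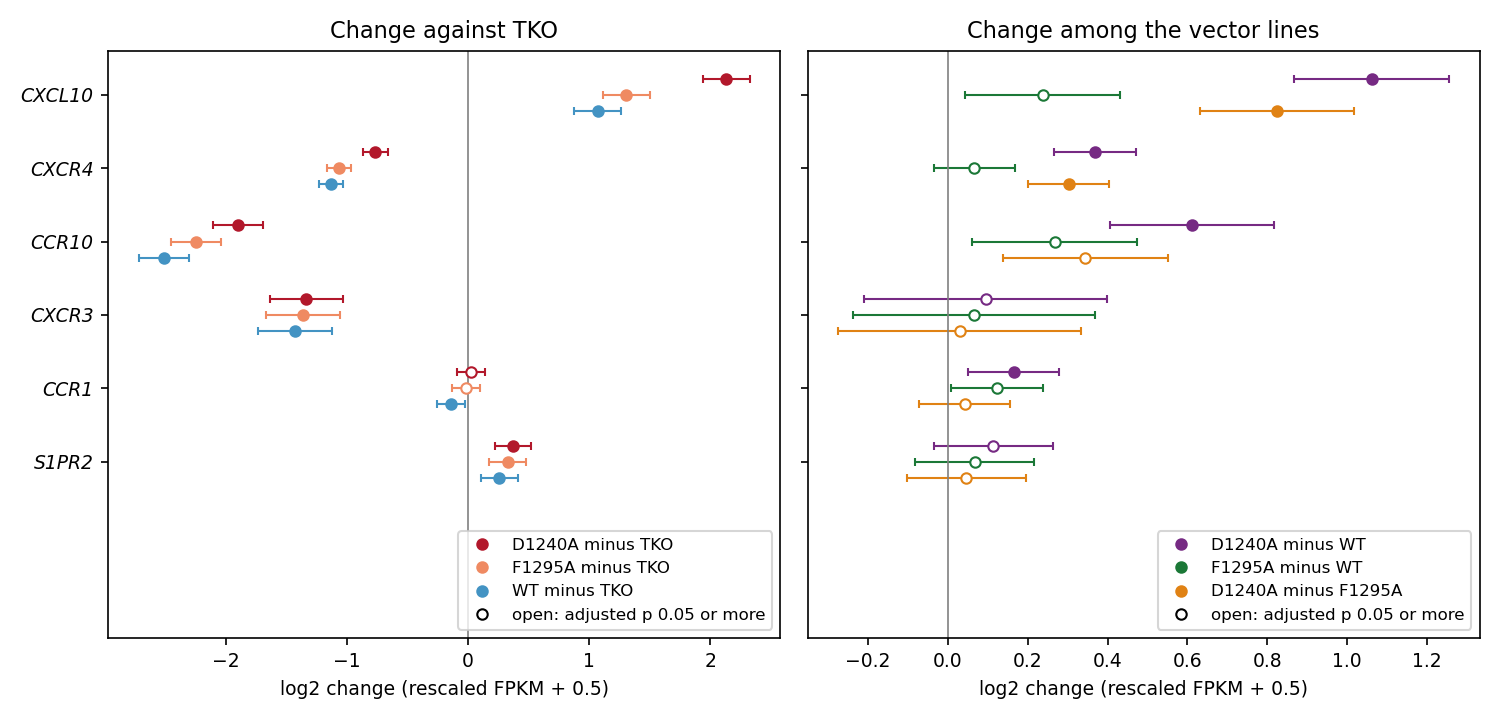
Log2 change of the 6 tested genes with 95% intervals (horizontal axis), each vector line against TKO at left and the vector lines against each other at right; filled points have an adjusted p under 0.05. CCR10, CXCR4 and CXCR3 lie below 0 at left with CXCL10 and S1PR2 above it. CXCR3 entered this test through its TKO libraries, so its filled points at left give no support. At right D1240A minus WT is called for CXCL10, CXCR4, CCR10 and CCR1.

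Set against each other, the vector lines differed mainly through D1240A. In D1240A against WT 4 of the 6 tested genes rose (CXCL10, CCR10, CXCR4 and CCR1) and 0 fell, while 8.22% of all tested genes were called higher and 10.9% lower (19.2% in all). Their median change was 0.27, beside 0.01 for all genes. In D1240A against F1295A 2 rose (CXCL10 and CXCR4) and 0 fell, beside 3% of all genes higher and 3.09% lower (6.09% in all). F1295A against WT had 0 of 6 called by limma, where 0.896% of all genes were called higher and 1.81% lower (2.71% in all). An unadjusted limma p under 0.05 was found for 3 of the 6 and for 2330 of the 14391 tested genes. The libraries did not overlap for 5 of the 6 in D1240A against WT, 3 in D1240A against F1295A and 2 in F1295A against WT, beside 35.4%, 24% and 22.9% of all tested genes. Group means ran D1240A, F1295A, WT from high to low for each of the 6, yet several of these steps did not pass the test, and D1240A minus F1295A turned negative for CCR1 and S1PR2 on the values as deposited and for CXCR3 with library weights. For CXCR4 and CCR10 a higher level in D1240A meant a smaller distance from TKO, and for CXCL10 a larger one. NSD2 mRNA was also highest in D1240A but lowest of the vector lines in F1295A, and its part in these differences was not tested.

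Windows of the 50 nearest tested genes on the chromosome, 25 on each side, covered unlike distances. They spanned 29.1 megabases around CXCR4, 15.3 around CXCL10, 12.7 around CXCR3, 5.78 around CCR1, 2.55 around S1PR2 and 1.81 around CCR10. The genes in them describe the wider surroundings of each gene at these distances. Around CXCL10 their median log2 change was -0.02 in D1240A, -0.06 in F1295A and -0.07 in WT, each against TKO, and the adjacent tested genes SDAD1 and NUP54 differed by -0.06 (adjusted p = 0.168, not called) and -0.16 (adjusted p = 0.0018) in WT against TKO. The medians around CXCR4 were 0.08, 0.09 and 0.06, and around CCR10 -0.05, -0.06 and -0.07. CCR10 nevertheless had near neighbours that fell in WT against TKO, PLEKHH3 by 0.52 (adjusted p = 4.2e-06) and EZH1 by 0.31 (adjusted p = 0.0043) on the log2 scale. CXCR3 stood in a region that was lower as a whole, with medians of -0.46 in D1240A, -0.53 in F1295A and -0.53 in WT, and 39 of its 50 neighbours were below 0 in WT against TKO. The 468 tested genes of chromosome X other than CXCR3 had a median of -0.43 in that comparison. Relative to its neighbours CXCR3 was lower by 0.88 in D1240A, 0.84 in F1295A and 0.90 in WT. These sizes rest on the pseudocount of 0.5 FPKM, and CXCR3 was among the tested genes only through TKO. GCNA, 2333 bases away from CXCR3, fell in WT against TKO by 0.91 (adjusted p = 0.000175). The count of 39 of 50 below 0 in WT against TKO was also found around S1PR2, which itself rose. Medians there were -0.14 in D1240A, -0.16 in F1295A and -0.18 in WT. Around CCR1 they were -0.01, -0.07 and -0.09, with 28 of 50 below 0 in WT against TKO.

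**Figure D4:**
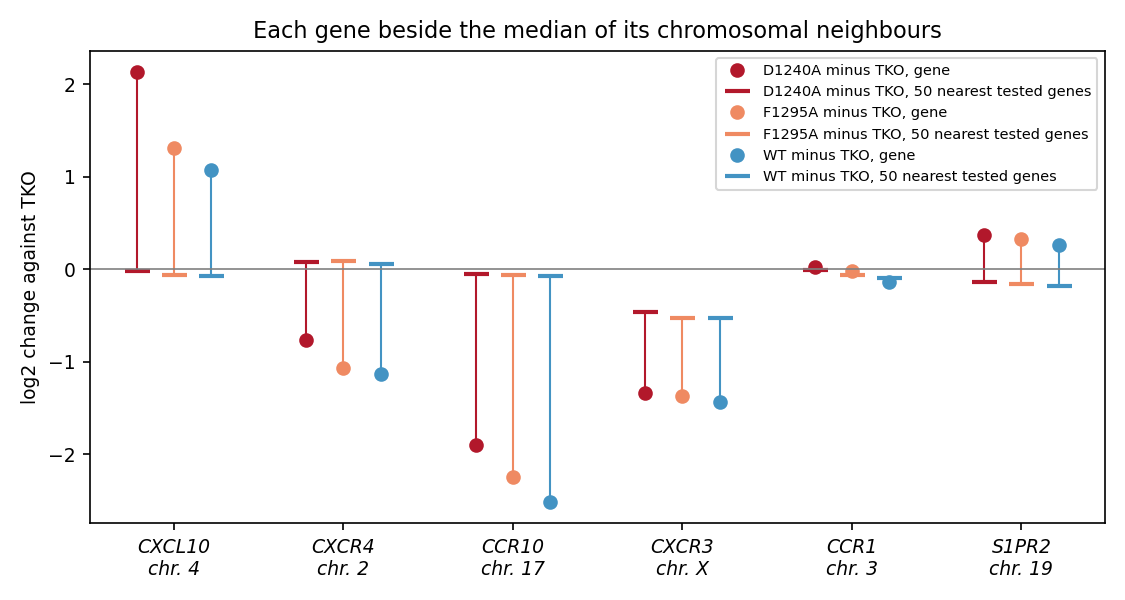
Log2 change against TKO (vertical axis) of each tested gene (points) and the median of its 50 nearest tested genes on the same chromosome (short bars), for D1240A, F1295A and WT. The bars lie near 0 except around CXCR3, where they are at -0.46 to -0.53, and around S1PR2, where they are slightly below 0 while the gene is above.

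Downstream of these receptors, mRNA of most listed genes for coupling them or switching them off (23 genes) averaged at least 1 FPKM in a group. Of 29 genes listed for G proteins, exchange factors, RGS proteins, receptor kinases and arrestins, 25 were tested: 12 rose, 7 fell and 6 were not called in WT against TKO, with a median of 0.18, beside 25.9% of all tested genes higher and 23.9% lower. DOCK2, the exchange factor that turns chemokine signals into movement, rose by 0.71 (adjusted p = 4.7e-07), the G protein subunit GNAI1 by 1.48 (adjusted p = 2.2e-07) and GRK6, a receptor kinase that desensitises CXCR4, by 0.82 (adjusted p = 7.0e-07). The kinase PTK2B fell by 0.60 (adjusted p = 3.2e-06). GNA13, the partner of S1PR2, averaged 41.2 ± 1.72 FPKM in D1240A, 38.5 ± 0.874 in F1295A, 40.8 ± 0.228 in WT and 39.5 ± 0.753 in TKO, with no call in WT against TKO. In D1240A against WT 3 of the 25 rose, 5 fell and 17 were not called, beside 8.22% and 10.9% of all genes. RGS1, which damps chemokine receptor signalling in lymphocytes, had the smallest adjusted p among them: 274 ± 1.56 FPKM in D1240A, 180 ± 6.20 in F1295A, 155 ± 1.90 in WT and 181 ± 2.95 in TKO. It rose in D1240A against WT by 0.82 (adjusted p = 3.6e-08) and in F1295A against WT by 0.22 (adjusted p = 0.0025), but fell in WT against TKO by 0.22 (adjusted p = 4.0e-05).

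Of 16 genes that make, degrade or export S1P, 12 were tested, and 4 rose, 3 fell and 5 were not called in WT against TKO, where 25.9% of all genes were higher and 23.9% lower. The lipid phosphatases PLPP1 and PLPP2 rose by 0.65 and 0.61 (adjusted p = 7.5e-07 and 8.5e-06), the S1P phosphatase SGPP1 by 0.42 (adjusted p = 0.00063), and the acid ceramidase ASAH1 fell by 0.31 (adjusted p = 0.0043). Other receptors and adhesion molecules of lymphocyte homing had 9 of 13 genes tested, with 3 rising, 3 falling and 3 not called in WT against TKO, against the same shares of all genes. ITGB7 rose there by 0.82 (adjusted p = 1.1e-09), and ITGAL, the alpha chain of LFA-1, and P2RY8, a GNA13-coupled confinement receptor, fell by 0.88 (adjusted p = 5.6e-06) and 0.69 (adjusted p = 8.1e-07). CD69, which pulls S1PR1 from the cell surface, was listed at 0 throughout.

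Genes that interferon is known to induce together with CXCL10 were examined as a list. Of 15 listed, 10 were tested: 3 rose, 4 fell and 3 were not called in WT against TKO, with a median of 0.01, beside 25.9% of all genes higher and 23.9% lower. IFI6 rose by 0.55 (adjusted p = 3.2e-05) and GBP1, a guanylate-binding protein, by 0.55 (adjusted p = 0.00296). IRF1 fell by 0.66 (adjusted p = 2.9e-07) and ISG15 by 0.34 (adjusted p = 0.00064), and MX1, an antiviral GTPase, by 0.97 (adjusted p = 0.00039). In D1240A against WT 3 rose, 1 fell and 6 were not called, with a median of 0.02, beside 8.22% and 10.9% of all genes. IRF1 averaged 28.8 ± 1.65 FPKM in D1240A, 23.1 ± 0.311 in F1295A, 22.6 ± 0.905 in WT and 36.1 ± 1.18 in TKO. It rose in D1240A against WT by 0.34 (adjusted p = 0.00046). IFIT3, named after its value was seen, rose by 0.55 (adjusted p = 0.0061). Whether interferon had a part in the CXCL10 levels was not tested.

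Several of the 9 genes are also expressed in blood cells other than plasma cells. The summed level of 8 monocyte and macrophage markers was 0.34 to 0.50 FPKM in D1240A, 0.28 to 0.56 in F1295A, 0.29 to 0.81 in WT and 0.79 to 0.90 in TKO, with S100A8 and S100A9 listed at 0 in all. That of 8 T and NK cell markers was 1.06 to 1.16 FPKM in D1240A, 0.83 to 1.08 in F1295A, 0.76 to 1.00 in WT and 1.09 to 1.64 in TKO, with NKG7 at 0 in all. For 5 B cell markers the sum was 0.85 to 1.03 FPKM in D1240A, 0.91 to 1.44 in F1295A, 1.39 to 1.66 in WT and 1.94 to 2.06 in TKO, with MS4A1 and PAX5 at 0 in 11 libraries and at up to 0.0592 in the other. The 6 stromal markers summed to 2.76 to 4.0 FPKM in D1240A, 1.97 to 2.43 in F1295A, 1.40 to 1.88 in WT and 1.40 to 1.76 in TKO, with COL1A2 and COL3A1 at 0 in all. The 5 endothelial markers summed to 0.31 to 0.74 FPKM in D1240A, 0.34 to 0.60 in F1295A, 0.15 to 0.57 in WT and 1.34 to 2.11 in TKO, mostly from PECAM1. Some of these sums moved with the groups, and their part in the results was not tested. In bulk RNA, fewer cells expressing a gene and less RNA per cell cannot be told apart.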

How the data were processed

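The authors deposited FPKM for each gene in each library. The submitters' processing notes name Trimmomatic 0.36, FastQC 0.11.4, STAR 2.7.9a, RSEM 1.3.1 and DESeq2, and the build GRCh38. The sources used here state no annotation release and no strand setting. GENCODE 29 supplied coordinates (56996 of 60504 identifiers matched, 94.2%).

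Computed here: structural RNA features (7089) were left out, libraries were brought to one scale with a trimmed mean of their log2 ratios (30% from each side, over genes averaging 1 FPKM or more), and 14391 genes that reached 0.5 FPKM in 3 libraries or more were tested. All 12 libraries entered 1 fit in limma 3.58.1 (R 4.3.3) on log2(FPKM + 0.5), by group, with a variance trend. The 6 pairs of groups were compared, with Benjamini-Hochberg adjustment over all tested genes. FPKM are no counts, so depth was estimated from the steps between low values of short genes: 91.2% to 93.8% of these lay within 0.2 of a whole number of fragments, against 40% by chance. Fragment numbers given for a gene are approximate. The fit was also run on simulated data with independent noise and few changed genes, unlike these data, as a check of the calculation only. Whether replicate numbers pair the libraries is not settled by weak correlations. The deviations of 18 same-numbered pairs correlated by -0.05 to 0.09 (median 0.03). Those of the 36 pairs with different numbers correlated by -0.11 to 0.08 (median -0.02). No 2 libraries were identical. Motifs were searched on both strands of RefSeq promoters.

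Members and lists were chosen with earlier results of these data known. Genes named besides the 9 were NSD2, list genes with the 4 smallest adjusted p in WT against TKO or in a mutant against WT, ligands and receptors with a mean of at least 1 FPKM in a group, and the nearest profiles; NUP54, SDAD1, PLEKHH3, EZH1, GCNA, ART3, CNTNAP1 and DNMT1 are named as chromosomal neighbours, and others, such as GNA13, CXCL12, CCL27, CCL28, IFIT3, GBP1 and MX1, were chosen after their values were seen. Alternatives were median-ratio scaling, values as deposited, no filter, a filter at 1 FPKM, pseudocounts of 0.1 and 1 FPKM, structural RNAs kept, only the 2 groups compared, library weights, a replicate block, and each library left out. Python 3.11.15, numpy 2.4.6, pandas 2.3.3 and matplotlib 3.10.9 were used.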

Additional observations from a re-analysis of the deposited data

How the results depend on the processing

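Over 774 repeats of the single-gene results, 736 kept direction and side of the threshold, 27 lost a call, 3 gained one and 8 changed sign, none of them from a called value. CXCL10 and CCR10 kept every call they had under every alternative; CXCR3 fell below the filter, and had no value, without any 1 TKO library. On the values as deposited, 2 of the 6 genes were called in D1240A against WT and 1 in D1240A against F1295A, the other counts staying within 1.5 times. The calls over all tested genes then numbered 1608 in D1240A against WT (249 higher, 1359 lower; 1183 and 1573 after rescaling), 89 in F1295A against WT (17 higher, 72 lower; 129 and 261) and 63 in D1240A against F1295A, and D1240A against TKO had 1589 higher and 3807 lower, beside 3357 and 3047. With only the 2 groups compared in the fit they numbered 1776, 255 and 91. Library weights gave 613 in F1295A against WT, and no filter 440 in D1240A against F1295A. Leaving out 1 library gave 1723 to 2833, 149 to 514 and 310 to 1225; the lowest were without WT replicate 1, WT replicate 1 and F1295A replicate 2. The cause was not tested.

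Sign changes, all between values that were not called, were CCR1 in D1240A against TKO (-0.119 as deposited), CCR1 in F1295A against TKO (-0.0511 to 0.0237 with 1 library left out), and in D1240A against F1295A CCR1 (-0.0466) and S1PR2 (-0.0373) as deposited, S1PR2 with 1 library left out (-0.0167 to 0.0896), and CXCR3 with library weights (-0.0110) or 1 library left out (-0.0394 to 0.0772). With the replicate number as a block, CCR1 in D1240A against WT lost its call (adjusted p = 0.0577), no other call of the 6 genes changed, and D1240A against F1295A had 525 calls over all tested genes. The numbers are not known to pair the libraries. Depth leaves CCL3, CCR2 and S1PR1 at too few fragments to compare groups.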

Other observations

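Among 14279 genes compared, the profile nearest to that of CXCL10 over the 12 libraries was CHRNA6, a nicotinic receptor subunit, with a root mean square difference of 0.15 in centred log2 level, followed by HDGFL3 (0.21). CHRNA6 averaged 7.71 FPKM in D1240A, 4.64 in F1295A, 3.61 in WT and 1.66 in TKO, the same order as CXCL10. The nearest to CCR10 were MMP9 (0.15), a matrix-degrading gelatinase, and ITM2C (0.17). MMP9 averaged 1.48 FPKM in D1240A, 0.869 in F1295A, 0.611 in WT and 6.14 in TKO. CXCR4 was nearest to CXorf21 (0.08) and DEK (0.08), a chromatin protein. DEK averaged 46.2 FPKM in D1240A, 40.1 in F1295A, 36.4 in WT and 88.0 in TKO.

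CXCR3 was nearest to XK and PUDP (both 0.11), which lie on chromosome X as CXCR3 does. XK averaged 4.53 FPKM in D1240A, 3.96 in F1295A, 4.25 in WT and 11.2 in TKO. CCR1 was nearest to ODF2 and UTP6, and S1PR2 to MVP and UBQLN2, at 0.04 each, but both profiles are nearly flat: 7824 and 5698 genes lay within 0.2 of them, beside 1 for CXCL10 and 8 for CCR10.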
